A study of Homo sapiens with 4 samples.

Results

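Open chromatin at 10 genes of insulin and growth factor receptor signalling was followed in 4 ATAC-seq peak lists. The genes are the receptors INSR, IGF1R, EGFR, ERBB3, MET and FGFR4, the coreceptor KLB, the adaptors IRS1 and IRS2, and the inhibitory adaptor GRB10. A peak belonged to them if the authors named 1 of these genes as nearest or if it lay at most 50 kb from any of their transcription start sites (TSS). Peaks that overlapped between lists were joined to 1 region, and 99 of the 69843 regions belonged to the 10 genes. The nearest-gene column of the lists holds 34326 names in all. ATAC-seq uses a transposase that inserts sequencing adapters into accessible DNA. The cells were Huh7, an established human liver cancer line, carrying a short hairpin RNA against ARID1A (shARID1A) or a control hairpin (shControl). ARID1A belongs to BAF, one of the SWI/SNF complexes that move nucleosomes. Each line received 100 nM rapamycin for 6 h or DMSO, so that the groups were shARID1A rapamycin, shARID1A DMSO, shControl rapamycin and shControl DMSO. Each group was 1 library from 50000 cells. Nothing in the labels says how many hairpins were used or whether the lines were clones or pools, and a peak list does not measure the knockdown.

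Insulin and IGF receptors phosphorylate IRS1 and IRS2, which recruit PI3 kinase and so activate AKT and the kinase complex mTORC1. Rapamycin inhibits mTORC1. In a known feedback loop, mTORC1 and its substrate S6 kinase phosphorylate IRS1 and mark it for decay, and mTORC1 stabilises GRB10, which binds the receptors and dampens them. When AKT is inhibited, FOXO factors enter the nucleus. There they are known to raise transcription of receptor genes such as INSR, IGF1R and ERBB3, and of IRS2. In hepatocytes, FGFR4 with its coreceptor KLB (beta-Klotho) receives FGF19 from the gut and represses bile acid synthesis, while EGFR and MET receive regeneration signals such as TGF-alpha and HGF. The comparison of rapamycin with DMSO in each genotype asks whether the sites at these genes were listed as open in the same places and at the same rank.

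RefSeq promoter windows of GRCh38.p14, from 250 bases before to 50 bases after a start, were given for 9 of the 10 genes, 15 windows in all. The 7 printed were picked after their values were seen. KLB, IRS2, IGF1R and GRB10 were taken for promoter peaks that differed in rank or presence between lists. IRS1 and MET were taken for an E-box in a window that overlapped a peak in every list. Capitals mark GTAAACA (FOXO core) in KLB, CAAAACA (insulin response element core) in IRS2, CACGTG (E-box) in IRS1 and MET, and GGGCGG (GC box) in IGF1R and at the upstream GRB10 start, each on either strand. The internal GRB10 window holds none of these and is in lower case throughout. GC boxes are marked only in windows without another of the motifs, so those in IRS2, IRS1 and MET stay in lower case. The KLB window is chr4:39406680-39406979 (plus strand) and the IRS2 window chr13:109786534-109786833 (minus strand). The IRS1 window is chr2:226799771-226800070 (minus strand), and the MET window chr7:116671946-116672245 (plus strand). The GRB10 windows are chr7:50793404-50793703 for the upstream start and chr7:50782847-50783146 for the internal start (both minus strand), and the IGF1R window is chr15:98648289-98648588 (plus strand).
KLB: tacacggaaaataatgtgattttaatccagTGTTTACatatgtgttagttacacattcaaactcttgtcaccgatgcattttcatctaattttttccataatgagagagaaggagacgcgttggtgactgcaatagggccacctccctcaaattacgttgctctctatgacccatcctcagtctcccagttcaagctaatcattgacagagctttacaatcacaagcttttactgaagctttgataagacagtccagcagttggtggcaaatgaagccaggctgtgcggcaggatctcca
IRS2: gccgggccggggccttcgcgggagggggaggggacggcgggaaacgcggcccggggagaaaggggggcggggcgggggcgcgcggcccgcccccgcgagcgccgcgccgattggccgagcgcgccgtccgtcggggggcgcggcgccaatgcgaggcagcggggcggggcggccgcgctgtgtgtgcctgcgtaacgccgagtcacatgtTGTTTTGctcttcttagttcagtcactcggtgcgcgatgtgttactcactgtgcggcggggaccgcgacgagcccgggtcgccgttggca
IRS1: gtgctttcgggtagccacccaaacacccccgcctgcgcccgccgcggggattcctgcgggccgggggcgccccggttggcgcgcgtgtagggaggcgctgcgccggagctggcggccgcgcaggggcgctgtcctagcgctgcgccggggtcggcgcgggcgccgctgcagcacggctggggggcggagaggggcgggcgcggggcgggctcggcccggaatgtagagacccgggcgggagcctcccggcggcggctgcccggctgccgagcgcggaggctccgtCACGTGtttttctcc
MET: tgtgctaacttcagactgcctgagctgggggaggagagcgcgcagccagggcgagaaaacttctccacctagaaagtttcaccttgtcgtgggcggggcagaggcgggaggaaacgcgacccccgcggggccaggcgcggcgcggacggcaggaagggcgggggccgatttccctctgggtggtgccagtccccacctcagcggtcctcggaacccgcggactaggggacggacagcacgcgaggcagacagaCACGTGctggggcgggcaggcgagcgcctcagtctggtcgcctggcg
GRB10 upstream start: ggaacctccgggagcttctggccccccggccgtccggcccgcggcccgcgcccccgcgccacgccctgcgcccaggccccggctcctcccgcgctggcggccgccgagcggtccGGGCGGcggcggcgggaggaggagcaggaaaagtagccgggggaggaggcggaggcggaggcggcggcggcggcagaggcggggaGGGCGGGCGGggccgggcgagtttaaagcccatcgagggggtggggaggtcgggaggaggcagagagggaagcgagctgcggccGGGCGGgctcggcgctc
GRB10 internal start: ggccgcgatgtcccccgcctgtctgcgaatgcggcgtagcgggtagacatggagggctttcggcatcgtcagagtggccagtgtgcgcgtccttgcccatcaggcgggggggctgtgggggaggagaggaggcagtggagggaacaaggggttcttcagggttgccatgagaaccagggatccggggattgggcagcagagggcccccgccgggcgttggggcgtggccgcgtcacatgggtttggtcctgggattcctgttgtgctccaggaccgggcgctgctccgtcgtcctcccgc
IGF1R: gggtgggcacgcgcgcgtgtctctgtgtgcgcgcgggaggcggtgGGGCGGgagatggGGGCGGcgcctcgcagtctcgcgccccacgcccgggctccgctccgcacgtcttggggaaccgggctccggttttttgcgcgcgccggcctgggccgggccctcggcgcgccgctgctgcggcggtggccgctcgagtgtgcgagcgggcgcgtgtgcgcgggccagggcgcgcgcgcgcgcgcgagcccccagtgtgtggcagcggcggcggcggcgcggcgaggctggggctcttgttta

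Of the 15 windows, 9 overlapped a peak in all 4 lists, and their GC content ranged from 42.3% in KLB to 79.7% in IGF1R. Another 4 windows, at a downstream start of EGFR, one of FGFR4 and a pair in GRB10, overlapped no peak in any list and had 33.7% to 57.3% GC. The other two windows lie at the upstream GRB10 starts, have 81.0% and 81.7% GC, and overlapped a peak in some lists only. GTAAACA was found in 1 of the 15 windows (KLB), against 3.42% of all 35116 promoter windows of the same length. CAAAACA was also in 1 window (IRS2), against 4.92% of all windows. CACGTG was in 3 windows (IRS1, MET and the downstream FGFR4 start), against 7.26%, and TGACTCA (AP-1 site) in 1, the downstream EGFR start, against 4.95%. GGGCGG was in 9 windows, against 45% of all windows. None of these motifs contains another, both strands were searched, and overlapping copies of GGGCGG were counted apart. A match describes the letters and says nothing of binding.

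The lists held 44760 peaks in shARID1A rapamycin, 45700 in shARID1A DMSO, 49783 in shControl rapamycin and 52192 in shControl DMSO. The read depth behind them was unknown, so peaks absent from a list could not be told from peaks below its detection limit. With 1 library per group there is no spread between cultures, no test was made, and every value describes these libraries. A hepatocyte marker list had promoter peaks at 8, 8, 7 and 6 of its 10 genes in shARID1A rapamycin, shARID1A DMSO, shControl rapamycin and shControl DMSO, with ALB in no list. Endothelial markers had them at 1, 1, 0 and 1 of 5 in the same order, with PECAM1, CDH5, KDR and TEK in no list. LYVE1, the one endothelial marker with a promoter peak, lacked it in shControl rapamycin. Fibroblast and stellate markers had them at 3, 4, 4 and 4 of 6, with COL1A1, COL1A2 and ACTA2 in all 4 lists and DCN and PDGFRB in none. Of leukocyte markers, CD14 and CD68 had a promoter peak in all 4 lists, CD3D in shControl DMSO alone, and PTPRC and CD3E in none.

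The 10 genes held 72 peaks in shARID1A rapamycin and 80 in shARID1A DMSO, against 79 in shControl rapamycin and 81 in shControl DMSO. As regions they were 72, 78, 79 and 78 in that order, since 2 regions in shARID1A DMSO and 3 in shControl DMSO were split into 2 peaks. The peaks were 0.1609%, 0.1751%, 0.1587% and 0.1552% of the lists in that order. Every one of the 10 genes had a peak within 1 kb of a TSS in all 4 lists, beside 48.4% of 31034 genes. That background held 27305 genes with listed promoters, not limited to protein-coding ones, and 2695 protein-coding genes placed by strand. The remaining 1034 were scored as lacking a promoter peak, and 481 further protein-coding genes were left out. The share of 48.4% depends on these choices and is not that of genes matched to the 10. Of the genes with a promoter peak in any list, 86.7% had one in all 4. Of the 99 regions, 15 lay at a promoter of the 10 genes, 8 at the promoter of a neighbouring gene by the start positions used here, and 76 were distal. Counted as distal were also a MET and an IRS2 region that the authors annotated as promoters of LINC01510 and AL355810.1. All 8 neighbouring promoters were in all 4 lists, as were 11 of the 15 promoter regions and 37 of the 76 distal regions. Over all 69843 regions, classes pooled, 45.2% were in all 4 lists. A share by class over all regions is not given here, so these counts have no background of their own class. In gene structure, 64 of the 99 regions lay inside the gene, 25 upstream and 10 downstream.

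**Figure D1:**
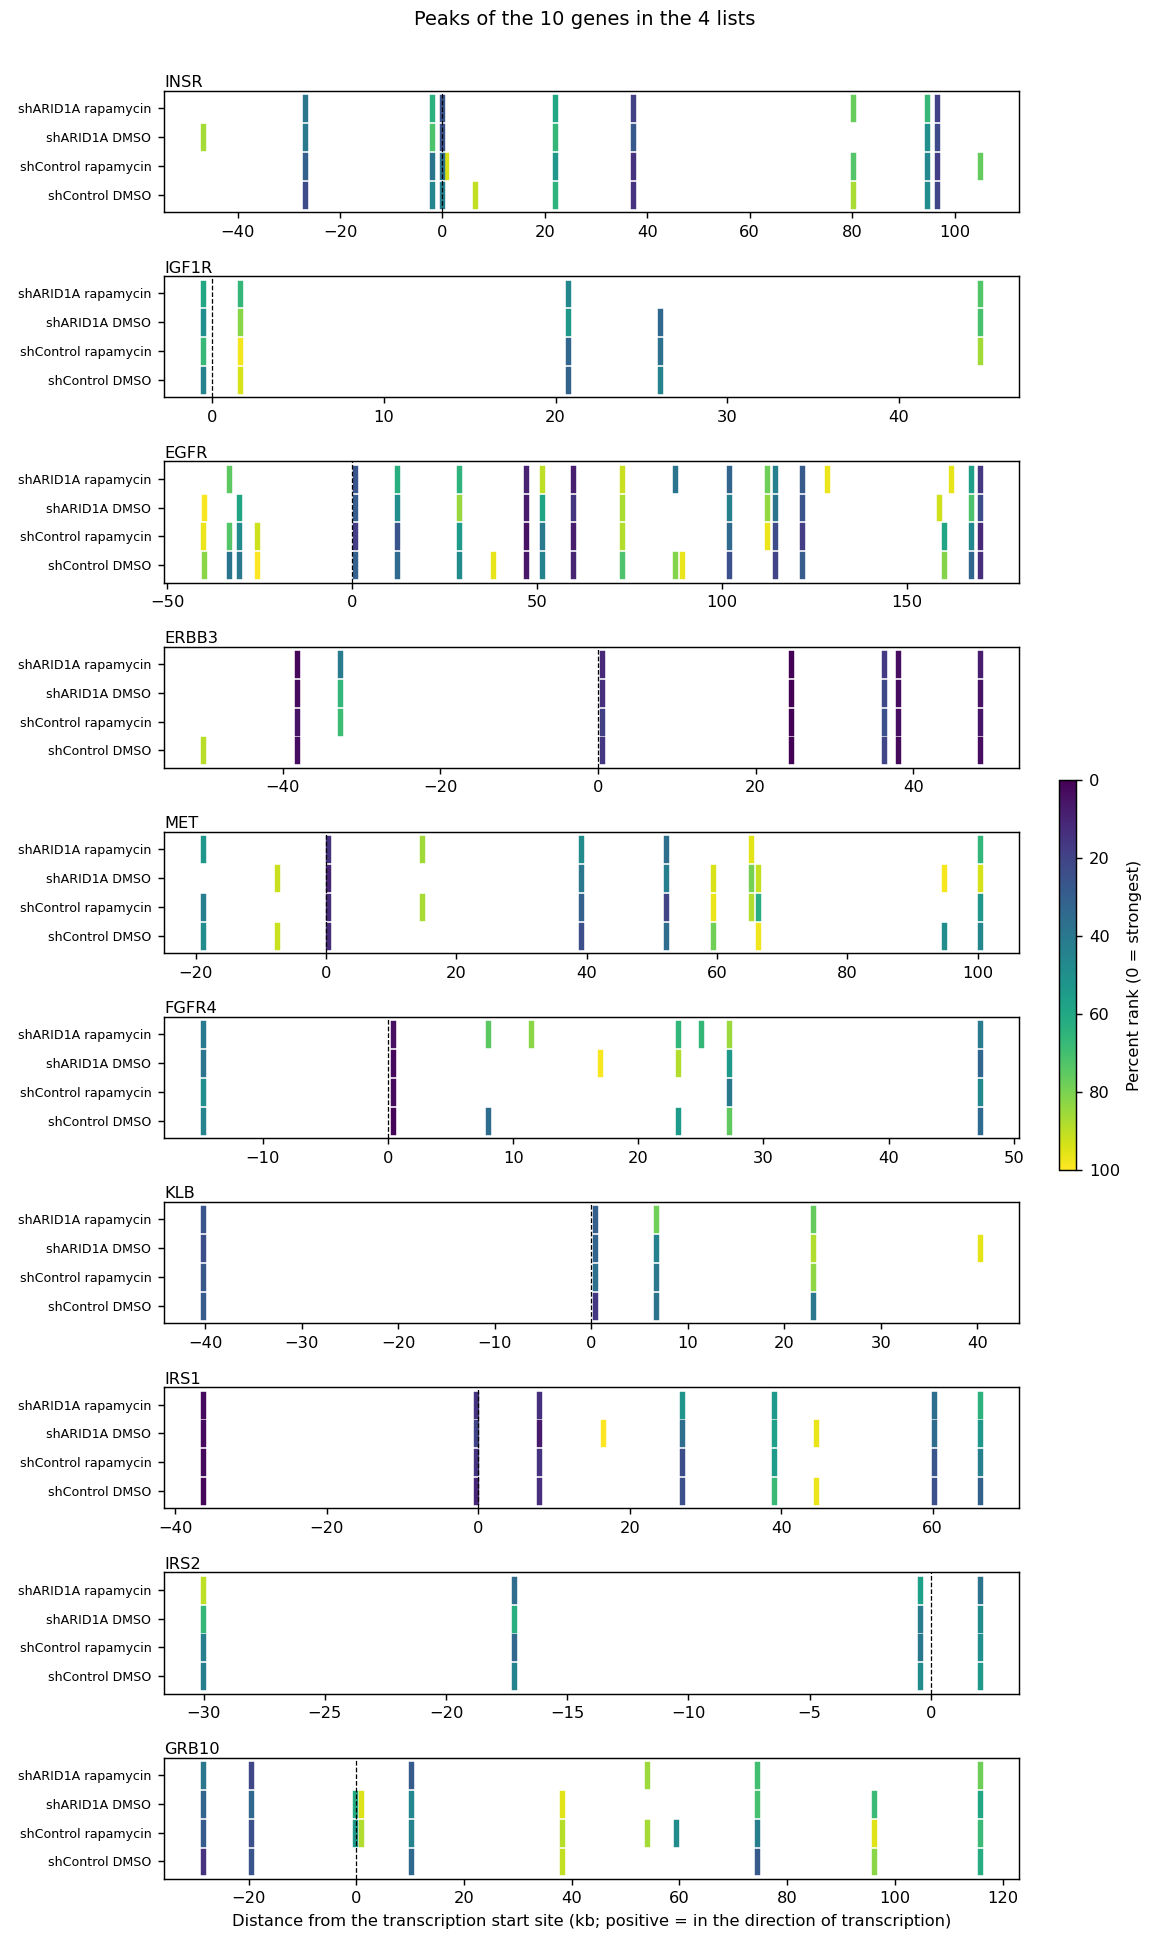
Each panel is a gene and each row a list, with a bar at the midpoint of every region that held a peak in that list; the x axis is distance from the start site in kb (dashed line) and the colour is the percent rank of the peak, dark for strong. Bars at the start site stand in all 4 rows of every gene but GRB10, whose constant promoter bar lies 10.2 kb downstream of its upstream start.

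Strength was read as percent rank, the place of a peak in its own list by the authors' score in percent of the list's length, where a small number is strong. A bulk library cannot tell fewer cells with an open site from a less open site in every cell. The lists differ in length, so percent rank was also taken among the 31584 regions present in all 4 lists, and called common rank here. A step is the percent rank in rapamycin minus that in DMSO of the same genotype, so that a positive step means weaker ranked in rapamycin. Neither scale shows a change in accessibility.

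Among the receptors, INSR, which binds insulin, had its promoter peak at chr19:7293968-7295007, at percent rank 25.6 in shARID1A rapamycin and 25.2 in shARID1A DMSO, against 36.8 in shControl rapamycin and 43.2 in shControl DMSO. It was thus ranked stronger in both shARID1A lists than in both shControl lists, and its steps with rapamycin were 0.39 points in shARID1A and -6.41 in shControl. On common rank the shControl step was -10.48. A second small peak beside it, chr19:7293504-7293921 in intron 1, was listed in shControl rapamycin alone, at percent rank 94.4.

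IGF1R, the receptor of insulin-like growth factors, had its promoter peak at chr15:98647274-98648716. Its percent rank was 59.5 in shARID1A rapamycin and 49.3 in shARID1A DMSO, and 66.8 in shControl rapamycin and 44.9 in shControl DMSO. Among the 11 promoter regions present in all 4 lists, this was the only one weaker ranked by at least 10 points in rapamycin in both genotypes, by 10.26 points in shARID1A and 21.95 in shControl. On common rank the steps were 9.43 and 18.94, so the shARID1A step then missed 10 points. A second promoter region in intron 1, chr15:98649404-98650932, lay at the start of the antisense transcript IRAIN and within 1 kb of a start used in the authors' distances. Its percent rank was 66.2 in shARID1A rapamycin and 82.2 in shARID1A DMSO, against 98.4 in shControl rapamycin and 93.8 in shControl DMSO. The shControl peaks, chr15:98649404-98650137 in rapamycin and chr15:98650108-98650932 in DMSO, overlapped only at their edges. In both DMSO lists the peak itself lay more than 1 kb from every IGF1R start used. Only the joined region met the promoter rule there.

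EGFR, the receptor of EGF and TGF-alpha, had its promoter peak at chr7:55018599-55020807, at percent rank 26.2 in shARID1A rapamycin and 28.9 in shARID1A DMSO, against 18.2 in shControl rapamycin and 30.8 in shControl DMSO. The shControl step of -12.58 points was the only promoter step towards stronger of at least 10 points in that genotype on percent rank, and was -21.36 on common rank. ERBB3, which pairs with other ERBB receptors and carries docking sites for PI3 kinase, had a promoter peak about 3 kb wide at chr12:56079030-56082156. Its percent rank was 11.5 in shARID1A rapamycin and 13.9 in shARID1A DMSO, and 18.5 in shControl rapamycin and 16.0 in shControl DMSO, with steps of -2.45 and 2.48 points. All 4 values lay between 11.5 and 18.5.

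FGFR4 had the strongest promoter peak of the 10 genes in every list, at chr5:177086636-177087926, with percent rank 4.20 in shARID1A rapamycin and 2.09 in shARID1A DMSO, against 2.46 in shControl rapamycin and 1.07 in shControl DMSO. MET, the receptor of HGF, had its peak at chr7:116671752-116673176, at percent rank 14.7 in shARID1A rapamycin and 10.1 in shARID1A DMSO, against 12.4 in shControl rapamycin and 12.5 in shControl DMSO. No rapamycin step of these promoters exceeded 4.58 points on percent rank.

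KLB, the coreceptor of FGFR4, had its promoter peak at chr4:39406793-39407752, over exon 1. Its percent rank was 29.9 in shARID1A rapamycin and 32.2 in shARID1A DMSO, against 37.1 in shControl rapamycin and 16.3 in shControl DMSO. The shControl DMSO list stood apart as the strongest of the 4, and the steps were -2.33 points in shARID1A and 20.87 in shControl, or -4.09 and 30.41 on common rank. The widths of the 4 peaks were alike, at 917, 959, 938 and 942 bp.

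Of the adaptors, IRS1 had its promoter region at chr2:226798692-226801661. It was 1 peak of 2838 bp in shARID1A rapamycin, 2303 bp in shARID1A DMSO and 2190 bp in shControl rapamycin, and was split into 2 peaks in shControl DMSO, the stronger 1048 bp wide. Its percent rank was 15.2 in shARID1A rapamycin and 19.9 in shARID1A DMSO, against 15.6 in shControl rapamycin and 10.6 in shControl DMSO, with steps of -4.72 and 4.95. The rank in shControl DMSO is that of the stronger fragment, chr2:226800513-226801561, which lies upstream of the start. The shControl step thus sets a whole peak against a fragment. The split raised the count of IRS1 peaks in shControl DMSO without any further open place.

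IRS2 had its promoter peak at chr13:109786501-109787536, at percent rank 56.5 in shARID1A rapamycin and 41.1 in shARID1A DMSO, against 40.3 in shControl rapamycin and 48.3 in shControl DMSO. The steps ran opposite ways, 15.36 points in shARID1A and -7.94 in shControl, or 16.43 and -11.71 on common rank. The weakest of the 4 values was that of shARID1A rapamycin.

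Over the 11 promoter regions in all 4 lists, 2 were weaker ranked by at least 10 points with rapamycin in shARID1A, beside 7.79% of 12561 promoter regions in all 4 lists, and 2 stronger, beside 5.53%. In shControl 3 were weaker ranked, beside 8.61%, and 1 stronger, beside 9.14%. On common rank 1 was weaker in shARID1A, beside 9.43%, and 2 stronger, beside 8.85%. In shControl 3 were weaker on common rank, beside 10.4%, and 3 stronger, beside 15%. Without a size limit, 5 of the 11 steps pointed to weaker in shARID1A and 7 of 11 in shControl. Among the regions stronger in shARID1A on either scale was the second IGF1R region. Its peaks in both DMSO lists lay by themselves more than 1 kb from every IGF1R start used.

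**Figure D2:**
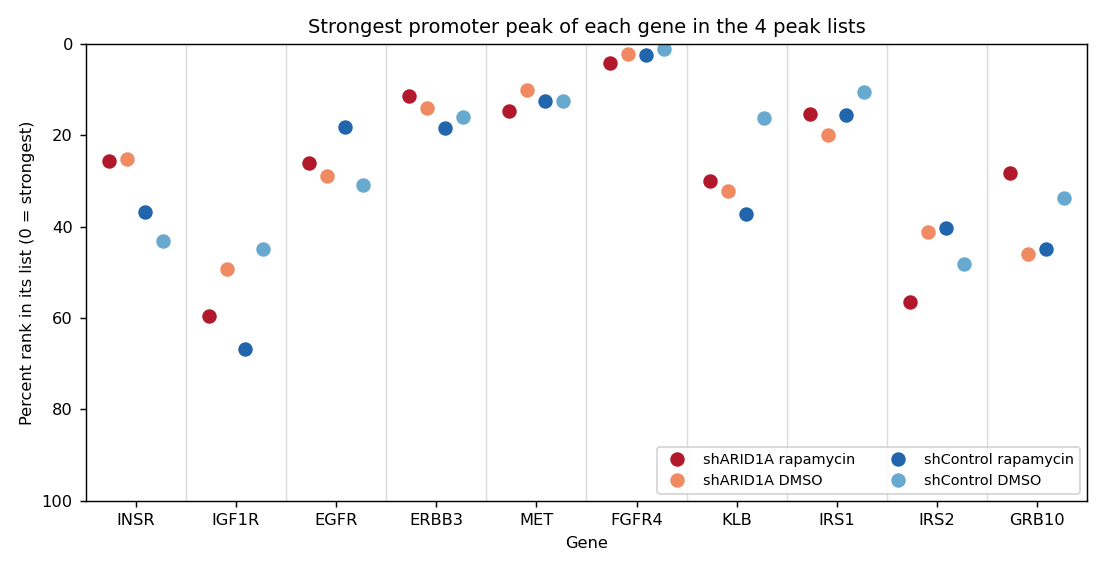
Percent rank (y axis, strongest at the top) of the strongest promoter peak of each gene (x axis), 1 point per list. FGFR4 lies between 1.07 and 4.20 in all lists, while KLB spans 16.3 to 37.1 and IGF1R 44.9 to 66.8.

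GRB10, an imprinted gene with several promoters, had 4 promoter regions, of which 3 were missing from at least 1 list. Its internal start, 10.2 kb downstream of the upstream start, carried a peak in all 4 lists at chr7:50782421-50784145. The percent rank there was 28.3 in shARID1A rapamycin and 45.9 in shARID1A DMSO, against 44.8 in shControl rapamycin and 33.7 in shControl DMSO. It was thus 17.61 points stronger ranked with rapamycin in shARID1A and 11.09 points weaker ranked in shControl, or 24.06 and 13.0 points on common rank.

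The upstream start had peaks in shARID1A DMSO and shControl rapamycin and none in shARID1A rapamycin or shControl DMSO. The region at the start itself, chr7:50793318-50793961, had percent rank 60.9 in shARID1A DMSO and 53.7 in shControl rapamycin. A second region 0.812 kb into the gene, chr7:50792335-50792946, had percent rank 94.6 in shARID1A DMSO and 87.9 in shControl rapamycin. This crossed pattern held for 2 of the 99 regions, or 2.02%, beside 1.73% of all regions. With rapamycin, the upstream start was thus absent in shARID1A where it was listed in DMSO, and listed in shControl where it was absent in DMSO. A further region in intron 1, chr7:50754730-50755897, was listed in shARID1A DMSO (95.7), shControl rapamycin (88.7) and shControl DMSO (90.7), near the bottom of each list, and not in shARID1A rapamycin. It counts as a promoter only by a start implied by the authors' distances in shControl DMSO, and no RefSeq start of GRB10 lies within 1 kb.

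**Figure D3:**
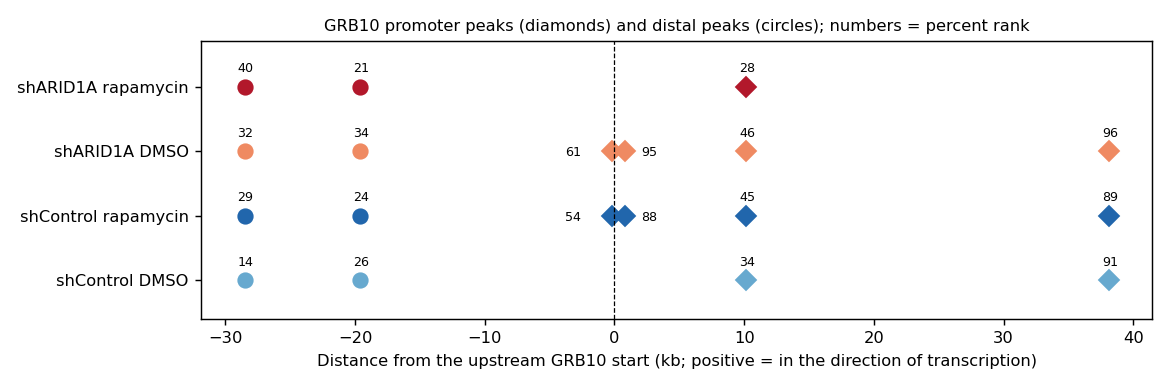
Peaks around the GRB10 starts by distance from the upstream start in kb (x axis), 1 row per list, diamonds for promoter and circles for distal regions, each with its percent rank. The pair of diamonds at the upstream start appears in shARID1A DMSO and shControl rapamycin, while the diamond at 10.2 kb and both upstream distal regions appear in all 4 rows.

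Peaks listed in 1 condition and not in the other were counted next. A peak was lost if it overlapped no peak of the rapamycin list by at least 1 bp, and gained if a rapamycin peak overlapped none of the DMSO list. Intervals are exact (Clopper-Pearson) 95% intervals and cover counting error only. In shARID1A, 18 of 80 peaks of the 10 genes were lost with rapamycin, or 22.5% (13.9% to 33.2%), beside 21.2% of all peaks in that list. In shControl 11 of 81 were lost, or 13.6% (6.98% to 23.0%), beside 21.7% of all peaks. In shARID1A 11 of 72 peaks were gained, or 15.3% (7.88% to 25.7%), beside 19.3% of all peaks. In shControl 12 of 79 were gained, or 15.2% (8.10% to 25.0%), beside 18.5% of all peaks. All 4 shares have the background share inside their interval.

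Distal peaks were more often absent from the other list than promoter peaks, and they were counted alone. In shARID1A 15 of 58 distal peaks of the 10 genes were lost with rapamycin (25.9%), beside 28% of all distal peaks, and 11 of 53 were gained (20.8%), beside 26.1%. In shControl 11 of 60 were lost (18.3%), beside 27.9%, and 9 of 56 were gained (16.1%), beside 23.5%. At promoters, those of neighbouring genes included, 3 of 22 peaks were lost with rapamycin in shARID1A (13.6%, interval 2.91% to 34.9%), beside 6.25% of all promoter peaks, and 0 of 19 were gained, beside 4.05%. In shControl 0 of 21 were lost, beside 5.16%, and 3 of 23 were gained (13.0%, interval 2.78% to 33.6%), beside 5.65%. All 3 losses in shARID1A were in GRB10, 1 of them at the intron 1 region that has no RefSeq start within 1 kb. Of the 3 gains in shControl 2 were in GRB10 and 1 in INSR. All 4 background shares lie inside the intervals of the 10 genes, which reach 17.6% for 0 of 19 and 16.1% for 0 of 21.

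Between genotypes, 11 of 80 peaks in shARID1A DMSO were gained over shControl DMSO, or 13.8% (7.07% to 23.3%), beside 17.7% of all peaks. In the same pair 11 of the 81 shControl peaks were lost, or 13.6% (6.98% to 23.0%), beside 27.6% of all peaks, which lies above the interval of the 10 genes. In rapamycin 7 of 72 shARID1A peaks were gained, or 9.72% (4% to 19.0%), beside 17.9%, and 14 of 79 shControl peaks were lost, or 17.7% (10.0% to 27.9%), beside 26.7%. Of distal peaks alone, 11 of 60 were lost in DMSO, or 18.3% (9.52% to 30.4%), beside 36% of all distal peaks, and 10 of 56 in rapamycin, or 17.9% (8.91% to 30.4%), beside 34.7%. As listed, both background shares lie above the intervals. Distal gains were 9 of 58 in DMSO (15.5%), beside 22.7%, and 7 of 53 in rapamycin (13.2%), beside 23.8%. At promoters 0 of 21 peaks were lost in DMSO, beside 5.01%, and 2 of 22 gained (9.09%), beside 6.44%. In rapamycin 4 of 23 promoter peaks were lost (17.4%), beside 6.21%, and 0 of 19 gained, beside 5.03%. The shARID1A DMSO list skips 6666 of its peak numbers and the shControl rapamycin list 1093, while none is skipped between peaks of the 10 genes. Counting flanks up to the next peak, 5 are skipped beside IRS2, INSR, MET, FGFR4 and KLB in shARID1A DMSO. The meaning of a skipped number is not given in the sources used. If each skipped number stood for 1 lost peak in its interval, an upper bound, 12.3% of the peaks of the 10 genes and 19.3% of all peaks would be lost in the DMSO pair. That background share lies inside the interval of the 10 genes. No such bound was computed for distal peaks, so the distal share of 36% in DMSO carries the same limit. Peaks of 1 gene are not separate observations, and EGFR alone held 20 of the 60 distal peaks in shControl DMSO.

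**Figure D4:**
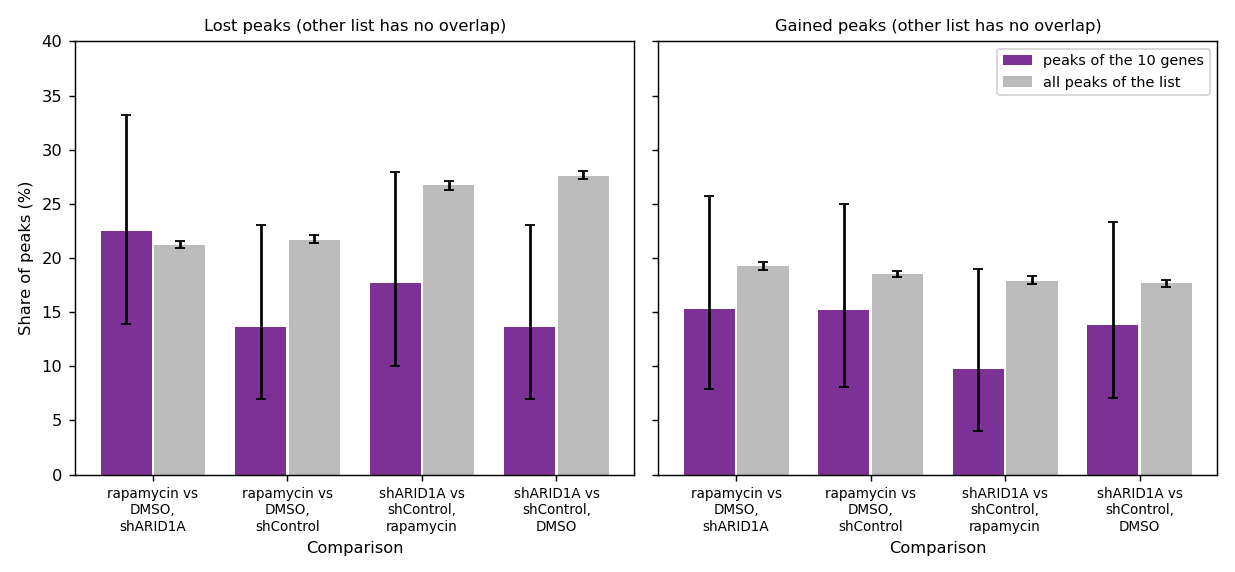
Share of peaks (%, y axis) lost (left) or gained (right) in each comparison (x axis), for peaks of the 10 genes (purple) and all peaks of the list (grey), with exact 95% intervals as error bars. With rapamycin the purple bars lie between 13.6% and 22.5% and their intervals hold the grey bars.

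The peaks that were absent from a partner list were mostly weak ones. Their median percent rank was 93.3 for losses with rapamycin in shARID1A and 89.2 in shControl, against medians of 41.7 and 35.0 for the peaks that had a partner. Over all lost peaks the medians were 84.5 and 82.7. For gains the medians were 76.6 in shARID1A and 86.6 in shControl, beside 85.0 and 84.2 over all gained peaks. The strongest peak lost with rapamycin stood at percent rank 33.3 in shARID1A and 35.2 in shControl, and the strongest gained at 38.3 and 48.1. Over all lists, the 17 regions found in 1 list alone had a median percent rank of 94.4 and the strongest stood at 48.1. Regions in shARID1A rapamycin alone were 4.04% of the 99, beside 5.59% of all regions, and in shARID1A DMSO alone 5.05%, beside 5.76%. In shControl rapamycin alone they were 4.04%, beside 7.68%, and in shControl DMSO alone 4.04%, beside 10.3%.

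Of the 99 regions 56 were in all 4 lists, or 56.6%, beside 45.2% of all 69843 regions. Few regions followed treatment or genotype. A pair of regions was in both rapamycin lists and neither DMSO list, 2.02% of the 99 beside 1.56% of all regions. One was chr7:116686461-116687303 in intron 1 of MET, at percent rank 85.8 in shARID1A rapamycin and 86.9 in shControl rapamycin. The other was chr7:50739118-50739711 in intron 1 of GRB10, at 84.9 and 86.4.

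There were 4 regions in both DMSO lists and neither rapamycin list, 4.04% beside 1.98%. One, chr2:226754962-226755458 in the intron of IRS1, had percent rank 96.7 in shARID1A DMSO and 96.9 in shControl DMSO. A second, chr7:116664416-116664836 at the start of LINC01510 upstream of MET, had 91.5 and 92.0. The third, chr7:116766851-116767293 in intron 11 of MET, had 98.8 in shARID1A DMSO and 49.0 in shControl DMSO. The fourth, chr7:54978746-54979159 upstream of EGFR, had 99.1 and 82.7. A separate shControl rapamycin peak at chr7:54978399-54978730, at percent rank 97.2, lay directly beside it without overlap. For the shControl pair the absence of this region thus rests on the peak edges. Apart from the intron 11 region of MET in shControl DMSO, all stood at percent rank 82.7 or weaker.

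No region was in both shARID1A lists and neither shControl list, beside 1.81% of all regions. The converse held for 2 regions of EGFR, 2.02% beside 5.22%. These were chr7:54993045-54993459, at percent rank 92.3 in shControl rapamycin and 99.7 in shControl DMSO, and chr7:55178631-55179314 at the end of EGFR-AS1, at 58.7 and 81.6.

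The distal regions differed between genes in number and strength. EGFR held 24, of which 11 were in all 4 lists, while ERBB3 held 2 and KLB, IGF1R and IRS2 had 3 each. The strongest distal peak of the 10 genes in both shControl lists lay in intron 1 of EGFR at chr7:55065275-55066684, at percent rank 9.71 in shARID1A rapamycin and 7.14 in shARID1A DMSO, against 4.55 in shControl rapamycin and 6.05 in shControl DMSO. It outranked the EGFR promoter in every list. A second EGFR region in the same intron, chr7:55077713-55079805, was the strongest distal peak in shARID1A rapamycin, at 8.59, and had 15.5 in shARID1A DMSO, 7.74 in shControl rapamycin and 10.1 in shControl DMSO.

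In IRS1 the strongest distal region in all lists was chr2:226791072-226792475, 8.05 kb from the start and in the single intron, at percent rank 13.9 in shARID1A rapamycin and 6.93 in shARID1A DMSO, against 15.2 in shControl rapamycin and 13.7 in shControl DMSO. At 6.93 it was also the strongest distal peak of the 10 genes in shARID1A DMSO. In INSR a region in intron 2, chr19:7197172-7198550, led both shARID1A lists at 18.9 in rapamycin and 22.5 in DMSO. Another in the same intron, chr19:7256623-7257943, led both shControl lists at 14.2 in rapamycin and 14.9 in DMSO. Each was in all 4 lists.

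In GRB10 the intergenic region 19.6 kb upstream, chr7:50812819-50813318, led both rapamycin lists at 21.3 in shARID1A and 24.5 in shControl. The region 28.5 kb upstream, chr7:50821418-50822495, led both DMSO lists at 31.8 in shARID1A and 14.2 in shControl. In MET the regions at chr7:116723805-116725010 and chr7:116710497-116712134, both in intron 2 of the longer annotated transcript, divided the lists in the same way. The first led in rapamycin, at 36.3 in shARID1A and 20.1 in shControl, and the second in DMSO, at 39.9 in shARID1A and 24.1 in shControl. All of these regions were in all 4 lists, so what differed was their order. The margins were smallest in shARID1A DMSO, where the other region of the pair stood at 33.55 in GRB10 and 42.3 in MET.

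The remaining genes had weaker distal peaks. The leading IGF1R region was chr15:98668665-98669889, 20.7 kb from the start and in intron 1, at 46.2 in shARID1A rapamycin, 32.5 in shControl rapamycin and 31.2 in shControl DMSO. In shARID1A DMSO it stood at 52.8, and chr15:98674124-98675081 in the same intron led at 33.3. That second region was also in shControl rapamycin (37.6) and shControl DMSO (44.6) but not in shARID1A rapamycin.

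For IRS2 the leader was chr13:109802694-109804894, 17.2 kb upstream, in both rapamycin lists, at 35.1 in shARID1A and 33.5 in shControl. In shARID1A DMSO a region in exon 1, chr13:109784274-109784844, led at 48.2, and in shControl DMSO chr13:109816258-109816988 led at 42.6. The region 17.2 kb upstream was split into 2 peaks in shARID1A DMSO, and the ranked one, 358 bp wide, stood at 62.9. ERBB3 had a distal peak at chr12:56047112-56047571, at 41.5 in shARID1A rapamycin and 65.9 in shARID1A DMSO, and 68.5 in shControl rapamycin. In shControl DMSO its only distal peak was chr12:56029843-56030137 at 89.2.

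For FGFR4 the leading distal region was chr5:177071619-177072606 inside the neighbour ZNF346 in both shARID1A lists, at 40.9 in rapamycin and 38.9 in DMSO. It was chr5:177113631-177114730 in shControl rapamycin, at 40.3, and chr5:177094590-177095238 in intron 11 in shControl DMSO, at 35.2. For KLB the leader was chr4:39413067-39414135 in intron 1 in 3 lists, at 43.7 in shARID1A DMSO, 39.5 in shControl rapamycin and 37.9 in shControl DMSO. In shARID1A rapamycin that region stood at 78.3, and chr4:39429427-39430433 led at 76.4.

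Rank steps of at least 10 points were about as frequent at the 10 genes as over all shared regions. In shARID1A 12 of 61 shared regions were weaker ranked with rapamycin (19.7%), beside 16.7% of all shared regions, and 12 of 61 stronger (19.7%), beside 14.2%. In shControl 13 of 67 were weaker ranked (19.4%), beside 20.5%, and 10 of 67 stronger (14.9%), beside 14.9%. The median step was -0.12 points in shARID1A and 1.31 in shControl, beside 0.33 and 0.84 over all shared regions.

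The 3 largest steps in each direction were mostly distal. Towards weaker with rapamycin in shARID1A these were the KLB region at chr4:39413067-39414135, by 34.53 points, the FGFR4 region at chr5:177113631-177114730, by 30.92, and an EGFR intron 1 region at chr7:55069620-55071003, by 30.89. Towards stronger in shARID1A they were a MET intron 14 region at chr7:116772027-116773070, with a step of -27.92, the IRS2 region at chr13:109802694-109804894 (-27.76) and the ERBB3 region at chr12:56047112-56047571 (-24.39). The IRS2 region was 1 peak of 1002 bp in shARID1A rapamycin and was split into 2 peaks in shARID1A DMSO, the ranked one 358 bp wide, so its step sets a whole peak against a fragment. At the EGFR region the peaks overlapped only in part, chr7:55069670-55070525 in shARID1A rapamycin and chr7:55070260-55071002 in shARID1A DMSO. That step thus sets partly different stretches against each other.

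In shControl the steps towards weaker were the KLB region at chr4:39429427-39430433, by 43.41 points, an EGFR region 33.2 kb upstream at chr7:54985523-54986017, by 34.91, and the IGF1R promoter, by 21.95. Towards stronger they were a MET region at chr7:116738064-116738969 (-35.23), the FGFR4 region at chr5:177113631-177114730 (-35.13) and the EGFR region at the end of EGFR-AS1 (-22.85). The FGFR4 region took a large step in both genotypes, in opposite directions. Its percent rank was 84.9 in shARID1A rapamycin and 54.0 in shARID1A DMSO, against 40.3 in shControl rapamycin and 75.4 in shControl DMSO.

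Over the 56 regions in all 4 lists, 16 were weaker ranked with rapamycin in both genotypes and 12 stronger in both. Another 16 were weaker in shControl and stronger in shARID1A, and 12 the converse. The shares of 28.6%, 21.4%, 28.6% and 21.4% stand beside 29.7%, 21.9%, 24.8% and 23.6% of all 31584 such regions.

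**Figure D5:**
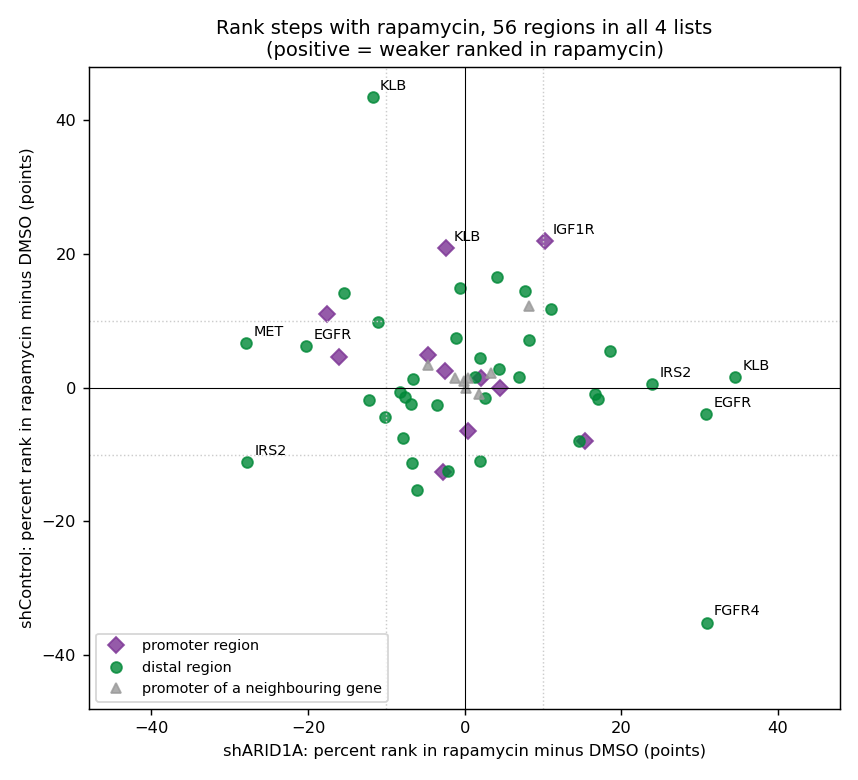
Step in percent rank with rapamycin in shARID1A (x axis, points) and in shControl (y axis, points) for the 56 regions present in all 4 lists; diamonds are promoters, circles distal regions and triangles promoters of neighbouring genes. The points fill all 4 quadrants, with KLB at 43.41 in shControl and FGFR4 at -35.13 in shControl and 30.92 in shARID1A lying farthest out.

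Other genes of the pathway were counted from lists of ligands, adaptors, FOXO factors and targets, negative regulators, sister receptors and the mTORC1-S6K arm, 109 genes of which AKT1S1 was not matched. A promoter peak was found at 95 of 108 in shARID1A rapamycin, 95 in shARID1A DMSO, 98 in shControl rapamycin and 96 in shControl DMSO, and 92 had one in all 4 lists. Over all 31034 genes the shares were 51.5%, 52.3%, 52.1% and 51.8% in the same order, and 48.4% had one in all 4 lists. With rapamycin in shARID1A 1 of these genes lost its promoter peak, beside 4.35% of all genes with one, and 1 gained it, beside 2.93%. In shControl 0 lost it, beside 3.67% of all genes, and 2 gained it, beside 4.14%.

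The variable ones were few. IRS4, a sister adaptor of IRS1 and IRS2, had a promoter peak in every list but shARID1A rapamycin, and IGFBP5, which binds insulin-like growth factors, in every list but shARID1A DMSO. FGFR2 and FGFR3, sister receptors of FGFR4, had one in every list but shControl DMSO. IGF1, the ligand of IGF1R, and GRB7, an adaptor related to GRB10, had one in both shControl lists and neither shARID1A list. The share of all genes with such patterns is not given here, so no background stands beside these genes. The 16 FOXO factors and targets had a promoter peak at the same count of 14 in each list, with G6PC1 and PCK1, enzymes of gluconeogenesis, in none. The 15 matched genes of the mTORC1-S6K arm all had one in every list.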

How the data were processed

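ATAC-seq peak lists of 4 libraries, 1 per group, were used. Per the submitters' processing notes, BWA and MACS2 2.0 were used, and the build was GRCh38, also called hg38. Their settings, the treatment of transposase offset and duplicates, and the read depth were not given in the sources used here. Peaks were listed by the authors per library, each with a deposited score, whose scale was not stated, and with an annotation, a distance to the nearest TSS and a nearest gene, per the file headers. The score served only for ranks inside 1 list. Coordinates are those deposited, and those of a region span its peaks in all lists.

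The authors' distances imply different start positions between lists for 7 of the 10 genes, so all RefSeq starts (GRCh38.p14) and all starts implied by the distances were applied to every list. A promoter peak lies within 1 kb of such a start. A promoter region does so at its nearest edge, so a single peak inside it can lie farther away. Lost and gained peaks, regions, percent ranks and exact (Clopper-Pearson) 95% intervals came from scripts in Python 3.11.15 that used SciPy 1.17.1, NumPy 2.4.6 and pandas 2.3.3. The plots were made in matplotlib 3.10.9. No p-value was computed, since each group held 1 library. The functions were tested on simulated lists. Named regions are all promoter regions, each gene's strongest distal peak per list, distal regions that follow treatment or genotype, and the 3 largest rank steps per direction and genotype. Some flagged regions are outside that choice. The genes, gene lists and tests were chosen with earlier results of these data known. The result of 1 cell type marker is not reported here. Alternatives in the choice of peaks, overlap, list length, promoter width and rank were computed.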

Additional observations from a re-analysis of the deposited data

Results flagged for a closer look

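Of the 56 regions in all 4 lists, 4 had steps of at least 10 points in opposite directions in shARID1A and shControl, or 7.14%, beside 5.85% of all 31584 such regions. A further 4 regions were listed in crossed pairs of lists. With 1 library per group this difference was not tested, and it was picked out because the effects in the 2 genotypes have opposite signs.

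The step in percent rank at the internal GRB10 start was -17.61 in shARID1A and 11.09 in shControl, a difference of -28.7 points. The upstream GRB10 start was in shARID1A DMSO and shControl rapamycin alone, at percent rank 60.89 in shARID1A DMSO, as was the region beside it, at 94.6 in shARID1A DMSO. This pattern is held by 2.02% of the 99 regions, beside 1.73% of all regions. All 3 regions lie in 1 gene and were read in the same libraries, so they are not separate observations.

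An EGFR intron 1 region at chr7:55105901-55106462 was in shARID1A rapamycin, at percent rank 38.3, and in shControl DMSO, at 81.25, and in neither other list. An FGFR4 intron 11 region at chr5:177094590-177095238 showed the same pattern, at 74.94 in shARID1A rapamycin and 35.23 in shControl DMSO. The pair is 2.02% of the 99 regions, beside 1.69% of all regions. The step at chr7:55186028-55186838, an EGFR region inside EGFR-AS1, was -15.35 in shARID1A and 14.22 in shControl, a difference of -29.57 points. The step at the FGFR4 region chr5:177113631-177114730 was 30.92 in shARID1A and -35.13 in shControl, a difference of 66.05 points. The step at the KLB region chr4:39429427-39430433 was -11.72 in shARID1A and 43.41 in shControl, a difference of -55.13 points. These regions were named for this pattern after their values were seen.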

How the results depend on the processing

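No paired analysis was possible because each group held 1 library. Shares of lost and gained peaks stayed within the 95% interval of their main value when peaks were taken by nearest-gene name alone, by 50 kb alone, with 50% overlap, with 44760 top-ranked peaks per list, or with skipped numbers filled. Within 10 kb alone, the share gained by shARID1A over shControl in rapamycin was 19%, at the upper bound of its interval. With the stronger 50% of peaks alone, every share was lower. With rapamycin 2.5% (1 of 40) were lost and 2.7% (1 of 37) gained in shARID1A. In shControl 3.64% (2 of 55) were lost and 1.96% (1 of 51) gained. Between genotypes, 5.88% (3 of 51) were lost and 2.7% (1 of 37) gained in rapamycin. In DMSO 5.45% (3 of 55) were lost and 0% (0 of 40) gained. Most peaks of the 10 genes without a partner are thus outside the stronger 50%. These shares rest on few peaks, and none was computed over all peaks at this setting.

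A gene count of 10 with a promoter peak held within 2 kb and with equal list lengths. It also held with RefSeq starts alone, an alternative chosen after seeing the data. The count was 9 in shARID1A rapamycin and shControl DMSO when the peak had to overlap the start. The gene missing in both was IRS2, whose peak there lay just upstream of its start, while GRB10 kept a peak over its internal start. With common rank, the counts of regions with a step stayed within 1.5 times over all regions of the 10 genes, while among promoters the count stronger in shControl was 3 and not 1, and the count weaker in shARID1A 1 and not 2. With a step of 20 points, 4 of 61 shared regions were weaker and 5 stronger in shARID1A, and 4 and 3 of 67 in shControl. With a 2-fold step these were 2 and 0 in shARID1A, and 4 and 0 in shControl. No share over all shared regions was computed for these step sizes. Unknown depth and the lack of replicates limit all values.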
